A study of Mus musculus with 12 samples.

Results

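The genes described here encode inhibitory checkpoint receptors of T cells and their ligands. They were the 10 genes of the deposited expression table with the symbols Ctla4, Pdcd1, Lag3, Havcr2, Tigit, Cd160, Btla, Cd274, Pdcd1lg2 and Cd200, out of 45777 genes listed. They were chosen by name, and all 10 passed the filter on low values that left 15197 genes for testing. The RNA came from CD4+ T cells purified on magnetic beads from the spleens of wild type C57BL/6 mice, 7 weeks old by the sample labels. All 4 groups were stimulated with anti-CD3 at 0.5 µg/ml over 3 days, and each held 3 samples. Control received no drug, the second group metformin, the third FK506 (tacrolimus), and the last Metformin+FK506 (combination therapy). The drug doses of these cultures are not given in the sources used here, and the study's methods give an older age for its mice and also list soluble anti-CD28 among the activation conditions, which the labels do not.

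Checkpoint receptors appear on T cells after activation and restrain them, and their ligands sit mostly on the cells that present antigen. CTLA-4, the product of Ctla4, competes with the costimulatory receptor CD28 for the ligands CD80 and CD86. PD-1, encoded by Pdcd1, binds PD-L1 (Cd274) and PD-L2 (Pdcd1lg2), while LAG-3 binds MHC class II. TIM-3, encoded by Havcr2, binds galectin-9 (Lgals9) and CEACAM1, and TIGIT competes with CD226 for the poliovirus receptor (Pvr) and nectin-2. BTLA and CD160 both bind the herpesvirus entry mediator HVEM (Tnfrsf14), and CD200 is a membrane protein that signals to cells carrying its receptor CD200R1. FK506 blocks the phosphatase calcineurin and with it the transcription factor NFAT, which acts together with AP-1 on many genes of activated T cells. Metformin lowers mitochondrial respiration and activates the energy sensor AMPK.

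By RefSeq's annotation of GRCm38.p6 the genes lie on 6 chromosomes. Ctla4 (gene ID 12477) is at chr1:60909025-60915832 and Pdcd1 (18566) at chr1:94038305-94052553. Lag3 (16768) is at chr6:124904359-124912434, Havcr2 (171285) at chr11:46454931-46481255 and Cd160 (54215) at chr3:96798763-96829351. The ligand genes Cd274 (60533, chr19:29362107-29388095) and Pdcd1lg2 (58205, chr19:29410919-29472927) are neighbours 22.8 kb apart. Btla (208154, chr16:45223705-45252895) and Cd200 (17470, chr16:45382111-45409060) lie 129 kb apart, and Tigit (100043314) is at chr16:43626137-43665125.

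Promoter windows of 250 bases before to 50 bases after the annotated start, from RefSeq (GRCm38.p6), were held for 9 of the 10 genes, Lag3 being the exception. They were searched on both strands for the NFAT core GGAAA and the AP-1 element TGANTCA. Capitals below mark the matches, written TTTCC where the core is on the opposite strand. The windows of Ctla4 (chr1:60908775-60909074, plus strand) and Cd200 (chr16:45409004-45409303, minus strand) are shown because these genes fell strongly with FK506. Those of Pdcd1 (chr1:94052504-94052803, minus strand) and Cd274 (chr19:29367188-29367487, plus strand) are shown because these genes rose. The rise of Pdcd1 with FK506 alone was weak (log2 fold change 0.14). Havcr2 rose as well (0.57), and its window is not printed.
Ctla4: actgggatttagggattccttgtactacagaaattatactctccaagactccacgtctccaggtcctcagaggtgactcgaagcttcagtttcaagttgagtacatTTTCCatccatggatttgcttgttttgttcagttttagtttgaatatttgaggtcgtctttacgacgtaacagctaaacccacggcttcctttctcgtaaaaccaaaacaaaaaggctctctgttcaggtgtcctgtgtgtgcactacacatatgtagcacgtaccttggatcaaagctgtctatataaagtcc
Cd200: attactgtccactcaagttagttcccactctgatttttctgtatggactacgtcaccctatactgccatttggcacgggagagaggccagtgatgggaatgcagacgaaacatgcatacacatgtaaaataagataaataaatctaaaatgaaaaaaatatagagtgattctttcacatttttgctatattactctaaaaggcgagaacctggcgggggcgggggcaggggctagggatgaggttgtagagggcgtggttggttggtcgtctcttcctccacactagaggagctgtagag
Pdcd1: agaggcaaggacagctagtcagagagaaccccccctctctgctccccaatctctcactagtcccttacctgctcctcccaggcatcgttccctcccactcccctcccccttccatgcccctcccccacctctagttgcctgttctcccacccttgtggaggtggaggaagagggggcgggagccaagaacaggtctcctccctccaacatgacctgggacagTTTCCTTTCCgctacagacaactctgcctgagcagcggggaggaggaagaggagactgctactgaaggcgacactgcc
Cd274: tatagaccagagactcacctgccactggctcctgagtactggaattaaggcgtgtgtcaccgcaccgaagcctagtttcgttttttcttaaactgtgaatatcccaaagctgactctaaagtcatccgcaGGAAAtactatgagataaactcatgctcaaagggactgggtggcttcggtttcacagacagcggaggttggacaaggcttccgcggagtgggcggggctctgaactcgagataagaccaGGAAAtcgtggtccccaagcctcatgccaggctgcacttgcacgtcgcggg
The NFAT core occurred 1 time in the window of Ctla4, 2 times in those of Pdcd1, Cd274 and Tigit and 1 time in that of Pdcd1lg2. Cd160 has 2 annotated windows, and 1 of them held 1 match. No match was found in the windows of Cd200, Btla and Havcr2. Of all 32851 promoter windows 61.3% held this short core, so its presence did not set these genes apart. The AP-1 element was found in the window of Havcr2 and in no other of these, against 7.81% of all windows, and the 2 motifs overlapped in none of them.

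Each sample had between 43402632 and 64290105 counted reads. Levels are given as FPKM (fragments per kilobase of transcript, scaled to library size), and fold changes come from counts scaled by edgeR's TMM method. The 12 T cell genes examined, Cd3e and Cd4 among them, were all present, with group means from 57.7 to 423 FPKM, and their sum was 2358 to 2401 FPKM in Control, 2271 to 2374 under metformin, 1928 to 2043 under FK506 and 2101 to 2189 under the combination. Genes of other cells differed far more. The sum of 10 B cell markers was 64.3 to 68.5 FPKM in Control, 87.5 to 103 under metformin, 893 to 931 under FK506 and 427 to 458 under the combination. The sum of 10 myeloid markers was 4.40 to 4.57, 8.73 to 10.0, 1227 to 1260 and 782 to 912 FPKM in the same order. Its fall between FK506 and the combination was that of Lyz2, from 981 to 539 FPKM, while C1qb, C1qc and Cd68 were higher with the combination. Of these, Adgre1, C1qa, C1qc and Fcgr1 were at 0 in all Control samples, and C1qa, C1qb, C1qc, Csf1r and Fcgr1 in all metformin samples. The sum of 8 dendritic cell markers was 2.67 to 2.86, 4.46 to 5.24, 62.7 to 69.2 and 40.5 to 43.8 FPKM, with Xcr1, Clec9a and Cd209a at 0 in both Control and metformin. In bulk RNA, fewer cells of a type and less RNA per cell cannot be told apart, and the part that these other cells played in the values of the checkpoint genes was not tested. For this reason counts were also scaled to the 12 T cell genes, which raised the median log2 fold change of all genes between FK506 and Control from 0.024 to 0.53. Among changed genes the share of higher ones moved with it, from 51.1% to 62.4% for metformin against Control, from 51.1% to 73.4% for FK506 and from 51.6% to 68.5% for the combination. For the combination it moved from 51.6% to 68.2% against metformin and from 50.9% to 18.6% against FK506. Between FK506 and metformin it moved from 50.8% to 73.3%, and for the interaction from 48.3% to 24.1%. Scaling to the library size alone gave 62.0% for FK506 and 61.7% for the combination against Control, and 62.0% and 62.1% against metformin.

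**Figure D1:**
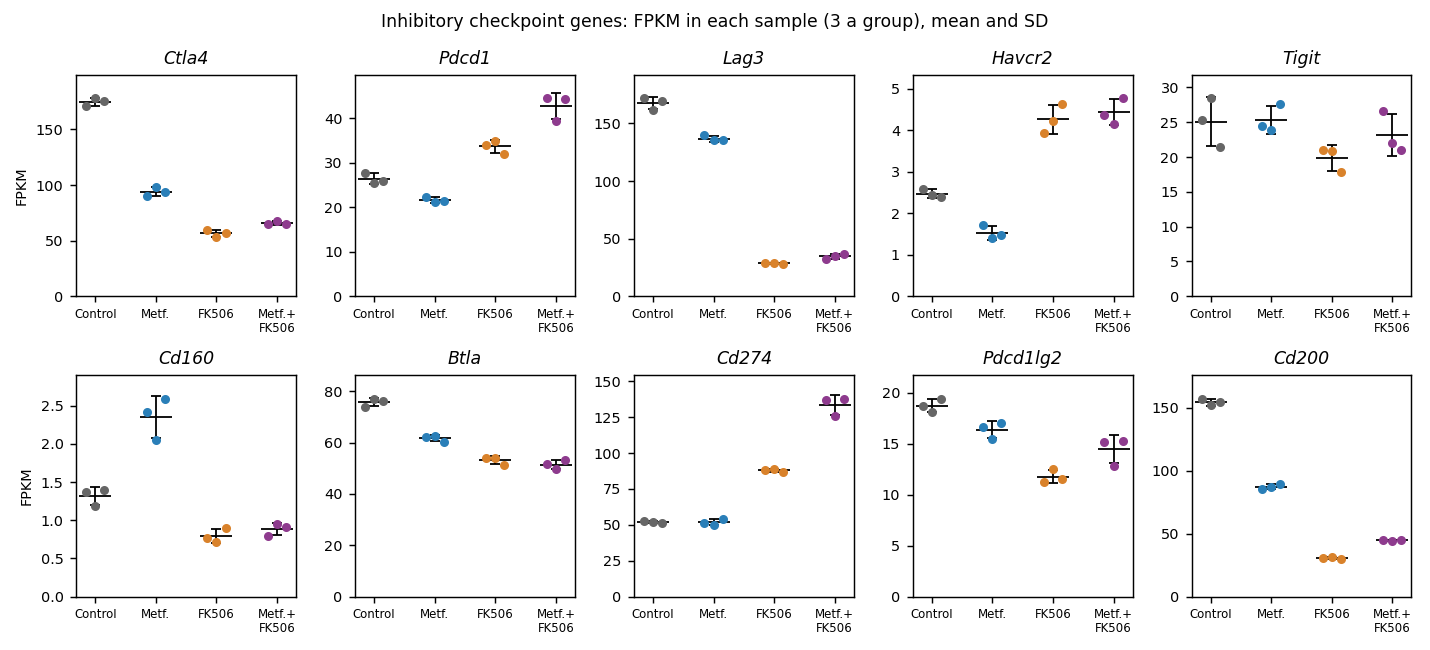
FPKM of the 10 checkpoint genes in each sample, by group (Metf., metformin). Points are samples, the horizontal line is the mean and the bar 1 SD (n = 3), and each axis starts at 0. Ctla4, Lag3 and Cd200 were highest in Control and lowest with FK506, whereas Cd274 reached 134 FPKM with the combination, against 51.9 in Control.

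Ctla4, Lag3 and Cd200 were the most abundant of the 10 genes in Control and the ones that fell most with FK506. Ctla4 had FPKM values of 171, 178 and 176 in the Control samples, 89.8, 98.0 and 93.7 under metformin, 59.7, 53.7 and 56.6 under FK506, and 64.7, 68.0 and 64.8 under the combination. No group overlapped another, and the order from high to low was Control, metformin, the combination and FK506. The level of Ctla4 was 1.91-fold lower with metformin than in Control (log2 fold change -0.93, standard error 0.045, adjusted p = 3.87e-11), 3.63-fold lower with FK506 (log2 fold change -1.86, adjusted p = 1.26e-15) and 3.06-fold lower with the combination (adjusted p = 6.69e-15), all by the quasi-likelihood test of edgeR, adjusted over the 15197 genes by the Benjamini-Hochberg method. The combination was 1.18-fold above FK506 alone (adjusted p = 0.000686), a difference that no longer passed when counts were scaled to the T cell genes (adjusted p = 0.0545). Ctla4 is also a gene of regulatory T cells, and 4 markers of those cells were followed. With metformin Foxp3 and Il2ra fell by 0.52 and 1.16 on the log2 scale, and Ikzf2 (-0.14) and Nrp1 (-0.15) did not pass. Against Control, FK506 raised Foxp3, Ikzf2 and Nrp1 and lowered Il2ra, which stood at 340 FPKM in Control, 156 under metformin, 50.8 under FK506 and 51.4 under the combination. The part of such cells in the Ctla4 values was not tested.

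Lag3, whose product binds MHC class II in competition with CD4, had FPKM values of 172, 162 and 170 in Control, 140, 135 and 135 under metformin, 28.6, 28.9 and 27.7 under FK506, and 32.1, 34.8 and 36.8 under the combination. The groups did not overlap, and the drop lay between the groups without FK506 and those with it. Lag3 was 6.82-fold lower with FK506 than in Control (log2 fold change -2.77, standard error 0.047, adjusted p = 1.22e-17), the largest change of the 10 genes in that comparison. With metformin alone it was 1.26-fold lower (log2 fold change -0.33, adjusted p = 6.93e-06). The combination stood 5.56-fold below Control and 1.23-fold above FK506 (adjusted p = 0.000141 for the latter).

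Pdcd1, the gene of PD-1, behaved differently. Its FPKM values were 27.8, 25.4 and 26.0 in Control, 22.3, 21.2 and 21.4 under metformin, 34.1, 34.9 and 32.1 under FK506, and 44.5, 39.5 and 44.3 under the combination. No group overlapped another, and the combination was highest and metformin lowest. Metformin alone lowered Pdcd1 by 1.25-fold against Control (adjusted p = 4.68e-05). The combination raised it, to 1.42-fold above Control (log2 fold change 0.50, standard error 0.049, adjusted p = 6.54e-08) and 1.29-fold above FK506 (adjusted p = 2.63e-05). FK506 alone was above Control by a log2 fold change of 0.14 (95% interval 0.025 to 0.25, adjusted p = 0.0166), and this call was weak: its adjusted p was 0.0772 without Control replicate 2, 0.0517 without Control replicate 3, 0.0642 without FK506 replicate 2 and 0.0960 with no filter on low values. Scaled to the T cell genes the same difference was 0.64, so its size rested on the scaling.

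Havcr2, the gene of TIM-3, was among the lowest of the 10. Its FPKM values were 2.59, 2.45 and 2.39 in Control, 1.71, 1.40 and 1.47 under metformin, 3.94, 4.22 and 4.64 under FK506, and 4.37, 4.16 and 4.77 under the combination. FK506 and the combination overlapped, and both lay above Control, which lay above metformin. Havcr2 was 1.66-fold lower with metformin than in Control (log2 fold change -0.73, standard error 0.11, adjusted p = 2.56e-05) and 1.48-fold higher with FK506 (log2 fold change 0.57, adjusted p = 8.54e-05). It was 1.57-fold higher with the combination than in Control (adjusted p = 2.19e-05). Between the combination and FK506 the log2 difference was 0.079 (95% interval -0.15 to 0.31, adjusted p = 0.596). Myeloid and dendritic cells also express Havcr2, and their markers, given above, were high in the same groups.

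Tigit needed the counts in place of FPKM. Its FPKM values were 25.3, 28.4 and 21.4 in Control, 24.5, 23.9 and 27.6 under metformin, 21.0, 20.9 and 17.8 under FK506, and 26.6, 22.0 and 20.9 under the combination. On this scale the groups overlapped except that FK506 lay below Control and metformin. The reads per unit of FPKM, which reflect the transcript length assumed for a gene, differed up to 1.39-fold between the Control samples for Tigit, and its FPKM varied by 14.0% there, against 4.18% for its CPM, the reads scaled to library size alone. On TMM-scaled CPM Tigit stood at 172, 160 and 166 in Control, 140, 148 and 146 under metformin, 105, 110 and 99.1 under FK506, and 116, 113 and 117 under the combination. No group overlapped another on this scale, and the order was that of Ctla4. Tigit was 1.59-fold lower with FK506 than in Control (log2 fold change -0.67, standard error 0.042, adjusted p = 2.52e-10) and 1.44-fold lower with the combination (adjusted p = 5.56e-09), the latter not passing on FPKM values in any of 3 fits (adjusted p from 0.149 to 0.429). With metformin alone it was 1.15-fold lower (log2 fold change -0.20, adjusted p = 0.000611), but the sign turned on FPKM values, where the log2 difference was 0.022 and did not pass. The rise of Tigit from FK506 to the combination (log2 fold change 0.14, adjusted p = 0.0170) was lost in 10 of 17 alternatives, among them leaving out FK506 replicate 1 or 3 or Metformin+FK506 replicate 1 or 3, where adjusted p lay between 0.0531 and 0.130.

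Cd160 was the only one of the 10 genes that rose with metformin alone. Its FPKM values were 1.37, 1.19 and 1.40 in Control, 2.42, 2.05 and 2.59 under metformin, 0.767, 0.710 and 0.899 under FK506, and 0.796, 0.945 and 0.916 under the combination. Metformin lay above all other groups, and the groups with FK506 overlapped and lay below Control. These values rest on 109 to 393 reads a sample, the fewest of the 10 genes. Cd160 was 1.74-fold higher with metformin than in Control (log2 fold change 0.80, standard error 0.15, adjusted p = 0.000272), 1.94-fold lower with FK506 (adjusted p = 3.72e-05) and 1.70-fold lower with the combination (adjusted p = 0.000312). Cytotoxic CD8 T cells and natural killer cells express Cd160 as well. The sum of 6 markers of these cells was 14.8 to 18.3 FPKM in Control, 34.8 to 41.3 under metformin, 28.8 to 30.6 under FK506 and 30.4 to 32.8 under the combination, and the natural killer marker Klrb1c was at 0 in all Control samples. Most of that sum with metformin was Klrd1, at 20.2 FPKM against 3.14 in Control and 19.8 with FK506. With metformin all 4 tested markers rose (Klrd1, Klrk1, Cd8a and Cd8b1), whereas with FK506 Klrd1 rose, Cd8b1 and Klrk1 fell by 0.75 and 0.46 on the log2 scale, and Cd8a did not pass (0.12). The part of such cells in the Cd160 values was not tested.

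Btla, the other receptor for HVEM, had FPKM values of 73.9, 77.2 and 76.4 in Control, 62.2, 62.7 and 60.4 under metformin, 54.1, 54.0 and 51.4 under FK506, and 51.6, 49.7 and 53.1 under the combination. Control was highest, metformin came next, and FK506 and the combination overlapped. Against Control, Btla was 1.24-fold lower with metformin (adjusted p = 5.41e-07), 1.65-fold lower with FK506 (log2 fold change -0.72, standard error 0.033, adjusted p = 3.82e-12) and 1.68-fold lower with the combination (adjusted p = 2.19e-12). The combination and FK506 differed by -0.030 on the log2 scale (95% interval -0.11 to 0.046, adjusted p = 0.531). B cells also carry Btla, and the sum of their markers, given above, was higher in both groups with FK506 than in Control. The part of such cells in the Btla values was not tested. Scaled to the T cell genes, the fall with FK506 was -0.22 and still passed (adjusted p = 1.24e-05), while the difference between FK506 and metformin turned sign and no longer passed (0.013, adjusted p = 0.714).

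The neighbouring genes of the PD-1 ligands moved in opposite directions between Control and the groups with FK506, and both rose from FK506 to the combination. Cd274, the gene of PD-L1, had FPKM values of 52.4, 51.9 and 51.5 in Control, 51.6, 49.8 and 54.1 under metformin, 88.0, 89.0 and 86.9 under FK506, and 137, 126 and 138 under the combination. Control and metformin overlapped, FK506 lay above both and the combination above FK506. Cd274 was 1.46-fold higher with FK506 than in Control (log2 fold change 0.55, standard error 0.036, adjusted p = 5.23e-10), 2.25-fold higher with the combination (log2 fold change 1.17, adjusted p = 2.41e-14) and 1.54-fold higher with the combination than with FK506 (adjusted p = 3.29e-09). Metformin alone left a log2 difference of -0.035 from Control (95% interval -0.12 to 0.049, adjusted p = 0.444).

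Pdcd1lg2, the gene of PD-L2, had FPKM values of 18.7, 18.1 and 19.4 in Control, 16.7, 15.4 and 17.1 under metformin, 11.3, 12.6 and 11.5 under FK506, and 15.2, 12.9 and 15.3 under the combination. The groups did not overlap, and FK506 was lowest. Pdcd1lg2 was 1.85-fold lower with FK506 than in Control (log2 fold change -0.89, standard error 0.061, adjusted p = 8.55e-10), 1.49-fold lower with the combination (adjusted p = 2.11e-07) and 1.17-fold lower with metformin (log2 fold change -0.23, adjusted p = 0.00451, and 0.0750 when scaled to the T cell genes). The combination was 1.24-fold above FK506 (adjusted p = 0.000964). B cells, dendritic cells and macrophages can express both ligands. With FK506 and with the combination, Cd274 was higher and Pdcd1lg2 lower than in Control. In both comparisons all 10 B cell, all 9 tested myeloid and all 4 tested dendritic markers were higher. Between the combination and FK506, where both ligand genes were higher, all 10 B cell markers and 3 of 4 tested dendritic markers were lower, and of 9 tested myeloid markers 3 were higher (C1qb, C1qc and Cd68) and 1 lower. The part of these cells in the values of the ligand genes was not tested.

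Cd200 had FPKM values of 157, 152 and 154 in Control, 85.4, 87.0 and 89.8 under metformin, 30.4, 31.3 and 29.6 under FK506, and 45.0, 44.0 and 45.0 under the combination. No group overlapped another, and the order was again Control, metformin, the combination and FK506. Cd200 was 5.87-fold lower with FK506 than in Control (log2 fold change -2.55, standard error 0.034, adjusted p = 1.14e-18), 3.95-fold lower with the combination (adjusted p = 1.32e-17) and 1.81-fold lower with metformin (adjusted p = 1.95e-12). Adding metformin to FK506 raised it 1.49-fold (log2 fold change 0.57, adjusted p = 3.73e-09).

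**Figure D2:**
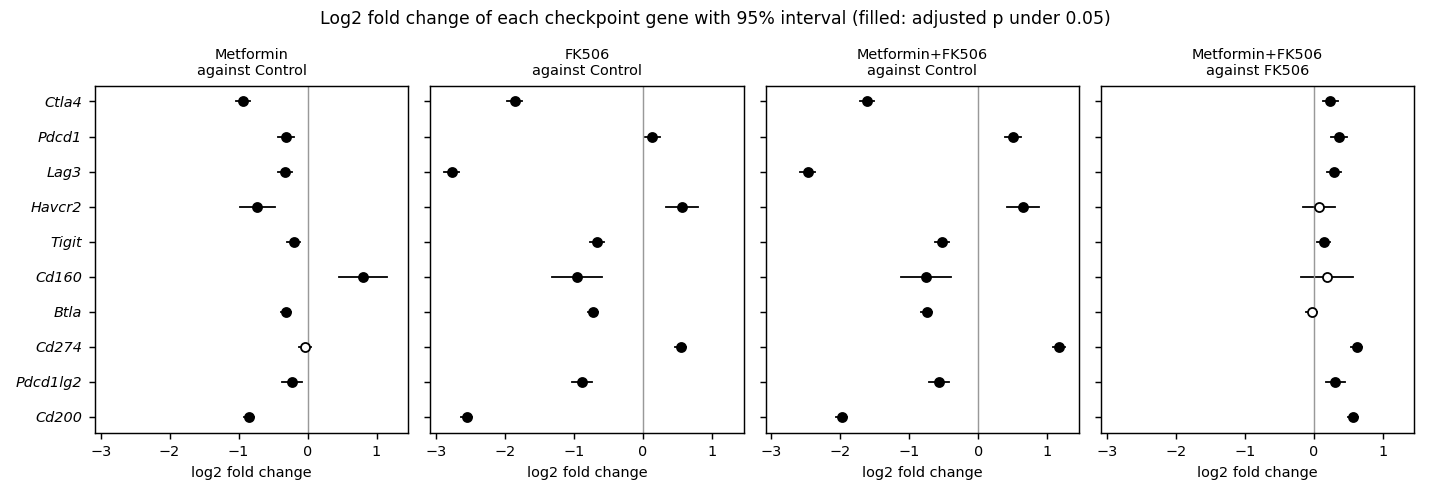
Log2 fold change of each checkpoint gene in 4 comparisons (x axis), with 95% intervals from edgeR's fit of all 12 samples. Filled points passed an adjusted p of 0.05. With FK506 or the combination 7 genes fell and 3 rose against Control, whereas all 7 filled points of the combination against FK506 lie to the right of 0.

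Counted together against Control, metformin lowered 8 of the 10 genes and raised 1, where 27.4% of all genes tested were lower and 28.6% higher (56.0% in either direction). The median log2 fold change of the 10 was -0.32, against 0.011 over all genes. FK506 lowered 7 and raised 3 (Pdcd1, Havcr2 and Cd274), where 39.6% of all genes were lower and 41.3% higher (80.9% changed), and the medians were -0.80 and 0.024. That all 10 changed is close to this background. The combination likewise lowered 7 and raised 3, again Pdcd1, Havcr2 and Cd274, where 39.6% of all genes were lower and 42.1% higher (81.7% changed), with medians of -0.66 and 0.033. These comparisons share the Control samples. With counts scaled to the T cell genes the numbers lower and higher became 7 and 1 for metformin and 7 and 3 for both FK506 and the combination.

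Against metformin alone, the combination lowered 7 of the 10 genes and raised 3, where 37.9% of all genes were lower and 40.3% higher (78.2% changed). With FK506 alone the numbers were also 7 and 3, against 38.6% lower and 39.9% higher (78.4% changed). Havcr2, 2.59-fold higher, and Cd274, 2.30-fold higher, rose most with the combination, and Lag3 (4.43-fold lower) and Cd160 (2.95-fold lower) fell most. Of the 7 lower genes, 5 passed in each of these comparisons when scaled to the T cell genes.

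Adding metformin to FK506 gave a different picture, in which most of the genes moved up. The combination exceeded FK506 for 7 of the 10 genes (Ctla4, Pdcd1, Lag3, Tigit, Cd274, Pdcd1lg2 and Cd200), where 15.6% of all genes were higher and 15.0% lower (30.7% changed). None was lower by edgeR's test (0 of 10 also with DESeq2 and at an unadjusted p under 0.05), and Havcr2, Cd160 and Btla did not pass. The median log2 fold change of the 10 was 0.27, against 0.0019 over all genes. The rises were small, from 0.14 for Tigit to 0.62 for Cd274 on the log2 scale. Of the 4 regulatory T cell markers 3 rose in the same comparison, Foxp3 by 0.29, Ikzf2 by 0.30 and Nrp1 by 0.33 on the log2 scale, and Il2ra did not pass (0.040), and their part in the rises of the checkpoint genes was not tested. Scaled to the T cell genes, whose sum was also higher with the combination than with FK506, 5 genes were higher (Pdcd1, Lag3, Cd274, Pdcd1lg2 and Cd200) and Btla was lower (log2 fold change -0.16, adjusted p = 0.00129).

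**Figure D3:**
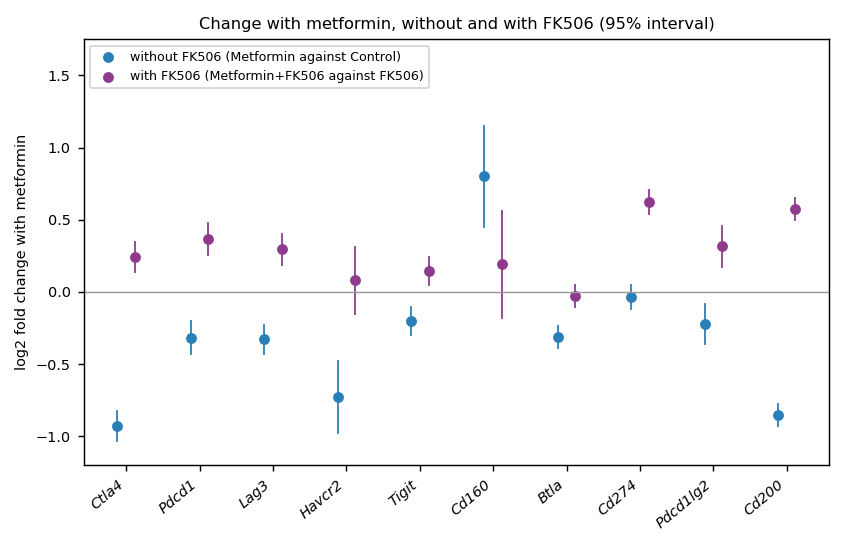
Log2 fold change with metformin (y axis) for each checkpoint gene (x axis), without FK506 (Metformin against Control, blue) and with FK506 (Metformin+FK506 against FK506, purple), with 95% intervals. For Ctla4, Lag3 and Cd200 the blue points lie below 0 and the purple points above it.

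Whether metformin acted alike with and without FK506 was asked by the interaction term, the log2 change with metformin in the presence of FK506 less that in its absence. It passed for all 10 genes, positive for 9 and negative for Cd160, where it was positive for 22.5% and negative for 24.0% of all genes (46.5% in all). The median was 0.64 for the 10 genes and -0.020 for all genes. All 4 regulatory T cell markers also had a positive interaction that passed (median 0.64), and their part in that of the checkpoint genes was not tested. It was largest for Cd200, 1.43 (standard error 0.047, adjusted p = 8.01e-13), which metformin lowered by 0.85 on the log2 scale without FK506 and raised by 0.57 with it. For Ctla4 it was 1.18 (standard error 0.064, adjusted p = 3.39e-10), from a change of -0.93 without FK506 to 0.24 with it. Lag3 turned from -0.33 to 0.29 and Pdcd1 from -0.32 to 0.37. For Cd274 metformin left no change that passed without FK506 and a rise of 0.62 with it. The negative interaction of Cd160 (-0.61, adjusted p = 0.0333) passed neither without Control replicate 2, Metformin replicate 1, Metformin replicate 3, FK506 replicate 3 or Metformin+FK506 replicate 1, where adjusted p lay between 0.0653 and 0.0875, nor with no filter on low values (0.0514). Those of Btla and Tigit did not pass when scaled to the T cell genes (adjusted p = 0.214 and 0.0746), and that of Tigit passed in none of 3 fits of FPKM values either (adjusted p from 0.374 to 0.406).

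**Figure D4:**
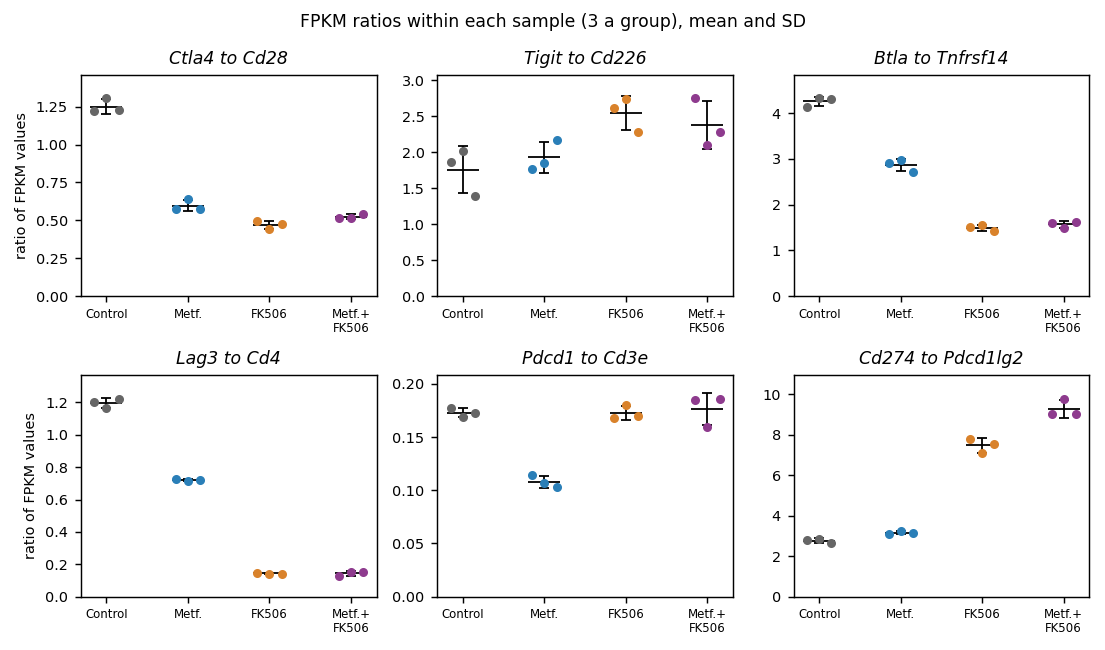
Ratios of FPKM values within each sample (y axis, no unit) for 6 pairs of genes, by group (Metf., metformin). Points are samples, lines the mean and bars 1 SD (n = 3). Lag3 to Cd4 was 0.143 in both groups with FK506, against 1.20 in Control, and Cd274 to Pdcd1lg2 was 2.77 in Control and 9.27 with the combination.

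A ratio of 2 genes in the same sample does not depend on how samples are scaled, so 6 such ratios of FPKM values were described. Such a ratio can change through either gene. Mean Cd3e was 152.4 FPKM in Control, 200.4 under metformin, 194.9 under FK506 and 242.2 under the combination. Mean Cd4 was 140.3, 189.7, 198.8 and 241.8 FPKM in the same order. Both denominators were thus lowest in Control and highest with the combination, and their part in the ratios was not tested. Lag3 to Cd4 was 1.20 ± 0.0300 (SD, n = 3) in Control, 0.721 ± 0.00501 under metformin, 0.143 ± 0.00206 under FK506 and 0.143 ± 0.0150 under the combination, and the last pair overlapped (two-sided exact permutation test, p = 1). Of the combination samples 2 lay above all FK506 samples, at 0.153 and 0.151, and 1 below them, at 0.126. Ctla4 to its costimulatory rival Cd28 was 1.25 ± 0.0472 in Control, 0.596 ± 0.0370 under metformin, 0.471 ± 0.0280 under FK506 and 0.525 ± 0.0174 under the combination, with no overlap between any compared groups. Pdcd1 to Cd3e, a chain of the T cell receptor complex, was 0.173 ± 0.00427 in Control, 0.108 ± 0.00565 under metformin, 0.173 ± 0.00669 under FK506 and 0.177 ± 0.0150 under the combination. Only metformin alone stood apart on this measure, and the values with FK506 and with the combination overlapped those in Control (exact permutation p = 1 and 0.8). Btla to Tnfrsf14 was 4.26 ± 0.103 in Control, 2.86 ± 0.133 under metformin, 1.50 ± 0.0695 under FK506 and 1.57 ± 0.0707 under the combination, and the groups without FK506 lay apart from each other and from those with it. Tigit to Cd226 was 1.76 ± 0.321, 1.93 ± 0.211, 2.54 ± 0.240 and 2.38 ± 0.335 in the same order. Since the FPKM of Tigit was uncertain, the ratio of reads was taken too, and it lay between 3.37 and 4.11 in Control, 3.59 and 3.89 under metformin, 4.56 and 5.29 under FK506, and 3.90 and 4.31 under the combination. On reads FK506 thus stood above all other groups, whereas the combination overlapped Control. Cd274 to Pdcd1lg2 was 2.77 ± 0.112 in Control, 3.16 ± 0.0682 under metformin, 7.48 ± 0.363 under FK506 and 9.27 ± 0.451 under the combination, without overlap. With 3 samples against 3 the smallest two-sided p that the exact permutation test allows is 0.1, so none of these ratios could pass 0.05.

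The ligands and counter-receptors of these genes were followed as a list of 20, of which 18 were tested. Fgl1, a ligand of LAG-3, was at 0 in every sample, and Nectin3 was below the filter. FK506 raised 11 of the 18 and lowered 5 against Control (median log2 fold change 1.45), and 16 changed of 18 is close to the 80.9% of all genes. Icosl passed the filter only through the groups with FK506, which fixed its direction, and without it 10 of 17 were higher and 5 lower (median 0.81). The largest rise was that of Icosl. The gene, which encodes the ligand of ICOS, went from 0.446 ± 0.107 FPKM (SD, n = 3) in Control to 31.2 ± 0.697 with FK506 and 49.6 ± 2.54 with the combination, a 60.1-fold and a 97.1-fold difference. H2-Aa, a chain of the MHC class II molecule that LAG-3 binds, went from 27.5 ± 0.531 to 693 ± 33.9 and 617 ± 24.4 FPKM, and H2-Ab1 from 81.1 ± 0.870 to 522 ± 18.1 and 430 ± 16.5. The receptor gene Cd200r1 rose 7.59-fold and Ceacam1, a ligand of TIM-3, 10.2-fold with FK506. Cd80 and Cd86, the ligands of CTLA-4, rose 6.87-fold and 5.10-fold with FK506 and stood 2.98-fold and 3.65-fold above Control with the combination. For Icosl, H2-Aa, H2-Ab1, Cd200r1, Ceacam1, Cd80 and Cd86 the B cell, myeloid and dendritic sums given above were high in the same groups, and their part in these values was not tested.

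Other partners, among them receptors that T cells carry, moved in either direction. Tnfsf14, which encodes the HVEM ligand LIGHT, fell 5.86-fold with FK506, from 12.6 ± 0.143 to 2.48 ± 0.424 FPKM. Cd96, a further receptor of the TIGIT and CD226 family on T cells and natural killer cells, rose 5.04-fold, from 6.09 ± 0.649 to 35.2 ± 1.04 FPKM. Lgals3, whose product galectin-3 binds LAG-3 and which macrophages express strongly, rose 4.25-fold with FK506, where the myeloid sum was high as well, and the part of such cells was not tested. Hmgb1, which encodes a ligand of TIM-3, had a log2 fold change of 0.073 that did not pass (adjusted p = 0.122). With FK506 Cd28 was lower by a log2 fold change of -0.43 and Cd226 by -1.12, and Icos, a costimulatory receptor, had a log2 fold change of -0.054 that did not pass (adjusted p = 0.218). Lgals9, which encodes the TIM-3 ligand galectin-9, fell 2.41-fold with metformin, 2.27-fold with FK506 and 2.49-fold with the combination. Pvr, the ligand of TIGIT, had log2 fold changes of -0.56, -0.90 and -0.88 in the same comparisons, and Tnfrsf14 one of 0.28, 0.81 and 0.72. Nectin2 rose with FK506 (log2 fold change 0.71) and with the combination (1.16), from 1.13 ± 0.189 FPKM in Control. Metformin alone raised 7 of the 18 partners and lowered 8, where 28.6% of all genes were higher and 27.4% lower. Ceacam1 was the one most raised by metformin, 5.70-fold, from 0.312 ± 0.0197 to 1.92 ± 0.262 FPKM, while of the MHC class II chains H2-Ab1 fell 2.01-fold and H2-Aa rose 1.50-fold. Compared with FK506 alone, the combination raised 4 partners and lowered 6, with Cd80 lowered most (2.31-fold) and Icosl raised most (1.62-fold). The combination raised 11 and lowered 5 against Control and raised 12 and lowered 4 against metformin. Without Icosl, whose direction in these 2 comparisons was fixed by the filter, 10 of 17 were higher and 5 lower against Control. Against metformin 11 of 17 were then higher and 4 lower. Of all genes 30.7% changed between the combination and FK506, 81.7% between the combination and Control and 78.2% between the combination and metformin.

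**Figure D5:**
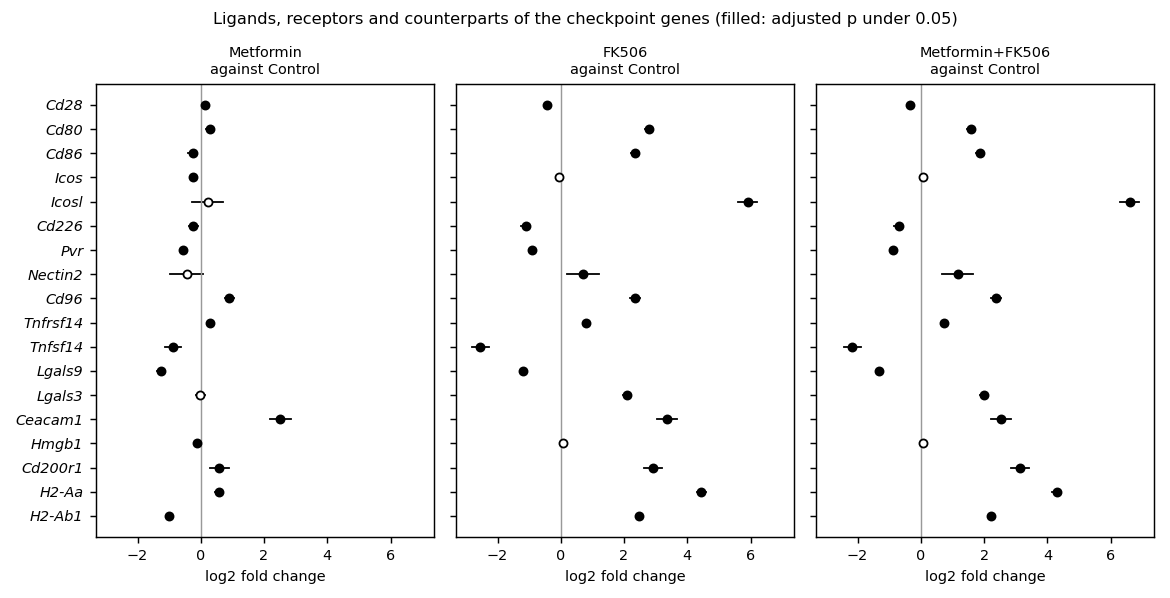
Log2 fold change (x axis) of the 18 tested ligands, receptors and counterparts of the checkpoint genes (y axis) against Control, with 95% intervals. Filled points passed an adjusted p of 0.05, and Icosl reached 5.91 with FK506 and 6.60 with the combination.

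Of 12 further inhibitory genes 9 were tested, Cd244a, Cd276 and Vtcn1 being below the filter. With FK506, 8 were higher and 1, Cd5, lower than in Control (median log2 fold change 1.80), where 41.3% of all genes were higher and 39.6% lower. The combination also gave 8 and 1 against Control, with Cd5 again the lower one, where 42.1% of all genes were higher and 39.6% lower. Pvrig and Klrg1 passed the filter only through the groups with FK506, so their direction was set by that entry. Without them 6 of 7 were higher and 1 lower with FK506 (median 1.45), and likewise with the combination (median 1.69). Pvrig, an inhibitory receptor of the nectin family, was at or under 3 reads in all Control samples and was at least 74.3-fold higher with FK506 and at least 96.0-fold higher with the combination. Entpd1 and Nt5e, the CD39 and CD73 enzymes that make adenosine from ATP outside the cell, rose 8.05-fold and 6.81-fold with FK506, and Klrg1 rose 6.77-fold. The B cell, myeloid and dendritic sums and Foxp3, Ikzf2 and Nrp1 were higher in the same groups, whereas Il2ra, the other regulatory T cell marker followed, was lower. The part of such cells in these rises was not tested. Metformin alone raised Nt5e 2.77-fold, and of the 9 genes it raised 3 and lowered 2, a total of 5 that became 3 without Control replicate 3 or Metformin replicate 2, where 56.0% of all genes changed. Adding metformin to FK506 raised 2 and lowered 1, with Nt5e 1.45-fold higher, where 30.7% of all genes changed.

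All 12 genes of signalling and shedding below these receptors were tested. FK506 raised 7 and lowered 4 against Control (median log2 fold change 0.16), where 80.9% of all genes changed. The largest change in that comparison was that of Sh2d1a, which encodes the adaptor SAP and was 2.03-fold higher. Grb2 and Inpp5d, an adaptor and the phosphatase SHIP1, rose by 0.89 and 0.51 on the log2 scale, and Adam17, a protease that sheds LAG-3 from the cell surface, by 0.64. The B cell, myeloid and dendritic sums given above were also higher with FK506, and their part in the values of the signalling genes was not tested. Ptpn6 and Ptpn11, the phosphatases SHP-1 and SHP-2 recruited by PD-1, had log2 fold changes of 0.12 and 0.20 with FK506 and of -0.10 and -0.24 with metformin, all past the threshold. Metformin alone raised 4 of the 12 and lowered 5 (56.0% of all genes changed), and among them Cblb, a ubiquitin ligase that restrains T cell activation, rose by 0.64 with metformin and fell by 0.45 with FK506 on the log2 scale. Against metformin alone, Cblb was 2.12-fold lower with FK506 and 2.43-fold lower with the combination. The combination raised 8 and lowered 3 against Control, where 81.7% of all genes changed, and raised 2 and lowered 2 against FK506, where 30.7% did.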

How the data were processed

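Poly(A) RNA of 12 samples, 3 in each of 4 groups taken from the sample titles, was analysed. The files deposited by the authors hold unnormalized whole-number counts of reads for each gene and FPKM values, scaled to library size and transcript length. Another 12 columns of per-sample values (TPM) were not used. The submitters' processing notes name bcl2fastq 2.20.0, Trimmomatic, HISAT2 2.1.0, StringTie 2.1.3b and mm10, with no role or order. Whether strand was used in counting, and how reads shared between genes were treated, is not given in the sources used here. Coordinates and promoter windows are those of RefSeq's GRCm38.p6, which 45679 of the gene identifiers matched.

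Counts of the 15197 genes that reached an FPKM of 0.5 in 3 or more samples were tested with edgeR 4.0.16 (TMM, glmQLFit and glmQLFTest) in R 4.3.3, with the 4 groups in 1 fit (8 residual degrees of freedom) and a Benjamini-Hochberg adjusted p under 0.05. This covered 6 comparisons of groups and the interaction. DESeq2 1.42.0, limma 3.58.1 on FPKM values and other scalings and filters served as alternatives, and the edgeR step was tested on simulated data. The members, their partners, the other lists and the markers were chosen with earlier results of these data known. From each list of 3, the 4 genes with the largest change past the threshold between FK506 and Control are named, as are 16 direct partners. Tnfsf14, Cd96, Lgals3, Hmgb1, Cd5, Ptpn6, Ptpn11 and Cblb were named after their values were seen. Where no sample of a group had over 3 counts of a gene, 3 counts per sample served as a floor, and the fold change against that group is a lower bound covering counting error only. Replicates differed by more than sampling noise (chi-square per degree of freedom from 3.94 to 14.8). Nothing states whether samples came from separate mice. The p-values therefore set group differences against a spread between these samples that may be technical.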

Additional observations from a re-analysis of the deposited data

Results flagged for a closer look

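For all 10 checkpoint genes the effect of metformin differed with and without FK506 by edgeR's interaction test. The difference of the log2 changes, with FK506 less without, was 1.43 for Cd200, 1.18 for Ctla4, 0.81 for Havcr2, 0.68 for Pdcd1, 0.66 for Cd274, 0.62 for Lag3, 0.54 for Pdcd1lg2, 0.34 for Tigit and 0.28 for Btla. For Cd160 it was -0.61. The same test passed for 46.5% of all genes, so a passing interaction as such was common in these data. The adjusted p-values ranged from 8.01e-13 for Cd200 to 0.0333 for Cd160. The signs of the 2 metformin effects were opposite, and both passed, for Ctla4, Pdcd1, Lag3, Tigit, Pdcd1lg2 and Cd200. For 3 of these a call did not hold throughout. The rise of Tigit with FK506 was lost in 10 of 17 alternatives and its metformin effect without FK506 turned sign on FPKM values. Scaled to the T cell genes, the effect on Ctla4 with FK506 (adjusted p = 0.0545) and that on Pdcd1lg2 without FK506 (adjusted p = 0.0750) did not pass.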

How the results depend on the processing

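Of the log2 fold changes of the 10 genes recomputed under the alternatives, 1194 kept direction and side of the threshold, 37 kept direction but no longer passed, 1 passed anew and 8 turned sign. The 8 were small. Tigit between metformin and Control became 0.022, 0.023 and 0.067 on log2(FPKM + 1), log2(FPKM + 0.1) and quantile normalized FPKM. Cd274 in the same comparison became 0.050 scaled to the T cell genes and 0.096 after quantile normalization. Scaled to the T cell genes, Havcr2 between the combination and FK506 became -0.050 and Btla between FK506 and metformin 0.013, and Btla between the combination and FK506 became 0.013 after quantile normalization. The cause was not tested. A minimum log2 change of 1 left 0 of the 10 genes for metformin against Control (by edgeR), 3 for FK506 and 4 for the combination against Control, 5 for the combination against metformin, 0 for the combination against FK506, 4 for FK506 against metformin and 2 for the interaction. The shares of all genes left were 10.5%, 36.6%, 37.4%, 32.2%, 4.21%, 32.4% and 11.9% in the same order. Without single replicates the number of genes called stayed at 9 or 10 in every comparison except the combination against FK506, where it was 6 or 7. For the further inhibitory genes, metformin changed 3 instead of 5 without Control replicate 3 or Metformin replicate 2, and scaled to the T cell genes the combination changed 5 instead of 3 of them against FK506 and 8 instead of 4 of the signalling genes, as calls over all 15197 genes went from 4660 to 6249.

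The replicate numbers of the labels did not pair the samples: the deviations of 18 same-numbered pairs correlated between -0.12 and 0.070. With the replicate block the calls of the 10 genes were unchanged in all 70 tests, with 9 called for metformin and 10 for FK506 against Control, while 4326 instead of 4660 genes were called between the combination and FK506. Depth limits Cd160 and Havcr2 most, with 109 to 393 and 222 to 814 reads a sample.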
